A study of Homo sapiens with 8 samples.

Results

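The genes described here are 60 genes of mitosis and the G2/M transition, chosen by name and ordered by role. They cover cyclins and kinases, the spindle checkpoint, kinetochore, kinesins, spindle proteins, condensin and chromosome structure, anaphase proteolysis, cytokinesis and 2 transcription factors. In the count table of 13841 rows, 59 of the 60 were found, each on 1 row, and only the kinesin KIF4A was absent under its current and older symbols. All 59 passed the filter on low counts and were tested among 11351 genes. The cells were A549, a long-cultured human lung adenocarcinoma line, and so tumour cells and not normal alveolar epithelium. The cells were under cyclic stretch for 24 h, with 15% elongation at 15 cycles per min, and were kept in culture for 6 days and then sorted by β-galactosidase staining, a lysosomal activity that is often raised in senescent cells. The 4 stained libraries are labelled Senescent (numbers 1, 3, 4 and 5) and the 4 unstained libraries Non_senescent (2, 6, 7 and 8). Both groups were stretched, and no comparison with unstretched cells is made. The labels do not tell whether each library was a culture of its own, so a p-value measures only the spread between these libraries, which may be technical.

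Cells enter mitosis when cyclin B and CDK1 are activated, and the checkpoint kinases then hold anaphase until every kinetochore is attached to the spindle. The anaphase-promoting complex, a ubiquitin ligase, next marks the cyclins and securin for destruction, and cytokinesis parts the daughter cells. Most of the genes are transcribed late in the cell cycle, switched on by the B-MYB and FOXM1 factors with the MuvB complex. The DREAM complex, which shares MuvB and forms when p21 is induced, keeps them off in resting cells, so these transcripts are generally low in cells that have left the cycle. Both complexes bind a short promoter element, the cell cycle homology region, often beside CCAAT boxes.

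That promoter element is shown first, since it is a sequence feature that many of the genes have in common. The genes were chosen by name, but as known targets of the complexes that bind it. Its share among them is thus a description and no independent result. RefSeq promoter sequences (GRCh38.p14, 250 bases before to 50 after the start) were matched for 50 of the 60 genes. Both forms of the homology letters were searched. The first was TTTGAA, which reads as TTCAAA on the opposite strand. The second was TTTAAA, which reads alike on both strands. The box was searched as CCAAT, which reads as ATTGG on the opposite strand, and overlapping matches were counted separately. Either form of the homology letters stood in 39 of the 50 promoters (78%), against 6625 of 27305 promoters of the same length over all genes (24.3%). Within the last 110 bases, from 60 before the start to 50 after it, the shares were 68% of the 50 promoters and 8.39% of all. CCAAT stood in 72% of the 50 promoters and 35.7% of all. These are matches of letters and not measured binding sites. Of the promoters, 6 are printed, 4 of genes whose estimates lay below 0 and which were highest in Non_senescent 2 (PLK1, CCNB1, CDC20 and KIF20A) and 2 of genes whose estimates lay above 0 and which were lowest there (ASPM and ECT2), with matches to either motif in capitals and all else in lower case.
PLK1 (chr16:23678639-23678938, plus strand): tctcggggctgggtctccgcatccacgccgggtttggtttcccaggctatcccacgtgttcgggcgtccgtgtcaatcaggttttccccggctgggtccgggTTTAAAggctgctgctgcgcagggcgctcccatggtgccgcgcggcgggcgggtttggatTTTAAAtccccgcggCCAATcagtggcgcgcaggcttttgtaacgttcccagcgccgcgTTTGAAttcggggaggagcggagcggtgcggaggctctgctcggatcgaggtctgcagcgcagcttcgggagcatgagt
CCNB1 (chr5:69166900-69167199, plus strand): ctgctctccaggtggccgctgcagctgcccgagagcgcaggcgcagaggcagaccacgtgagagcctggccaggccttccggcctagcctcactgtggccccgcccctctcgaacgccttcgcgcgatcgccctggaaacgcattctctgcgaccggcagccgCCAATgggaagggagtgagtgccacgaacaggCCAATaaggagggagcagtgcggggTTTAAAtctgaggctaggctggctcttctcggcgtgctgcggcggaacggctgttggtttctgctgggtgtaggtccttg
CDC20 (chr1:43358731-43359030, plus strand): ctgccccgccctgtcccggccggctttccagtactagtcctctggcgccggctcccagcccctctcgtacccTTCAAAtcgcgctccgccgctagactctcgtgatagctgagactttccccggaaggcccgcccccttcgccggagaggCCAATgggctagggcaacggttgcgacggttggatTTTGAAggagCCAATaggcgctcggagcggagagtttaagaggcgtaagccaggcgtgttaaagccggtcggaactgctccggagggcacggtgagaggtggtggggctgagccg
KIF20A (chr5:138178862-138179161, plus strand): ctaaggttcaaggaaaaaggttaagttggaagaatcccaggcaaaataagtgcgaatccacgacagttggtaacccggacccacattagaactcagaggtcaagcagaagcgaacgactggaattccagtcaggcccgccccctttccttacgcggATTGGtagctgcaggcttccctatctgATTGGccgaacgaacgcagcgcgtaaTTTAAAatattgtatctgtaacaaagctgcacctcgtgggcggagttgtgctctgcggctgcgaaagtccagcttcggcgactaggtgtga
ASPM (chr1:197146620-197146919, minus strand): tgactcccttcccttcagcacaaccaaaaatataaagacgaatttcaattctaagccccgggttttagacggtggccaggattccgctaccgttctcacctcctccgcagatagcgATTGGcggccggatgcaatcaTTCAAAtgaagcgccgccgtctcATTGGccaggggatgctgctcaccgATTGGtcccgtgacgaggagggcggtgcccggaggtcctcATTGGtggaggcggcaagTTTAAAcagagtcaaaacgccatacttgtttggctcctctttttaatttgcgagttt
ECT2 (chr3:172750476-172750775, plus strand): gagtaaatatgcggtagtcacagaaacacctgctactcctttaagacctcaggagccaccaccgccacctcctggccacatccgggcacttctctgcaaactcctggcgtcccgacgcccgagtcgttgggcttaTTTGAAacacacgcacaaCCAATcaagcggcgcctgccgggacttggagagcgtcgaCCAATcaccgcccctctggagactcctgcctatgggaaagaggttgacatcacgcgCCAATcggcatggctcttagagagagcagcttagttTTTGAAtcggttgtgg
All 6 held the homology letters and CCAAT, but these 6 do not stand for their sets. Among promoters of genes highest in Non_senescent 2, 28 of 36 held the homology letters, and among those of genes lowest there, 4 of 6. Both motifs together stood in 24 of the 36 and in 2 of the 6. The promoter of CCNA2, which is not printed, held 0 matches to the homology letters.

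Total counts ran from 5634961 to 7418432 in Senescent and from 6121383 to 7990839 in Non_senescent libraries, with the lowest in Senescent 1 and the highest in Non_senescent 2. Of 7 epithelial markers all were found in the table, KRT7, KRT8 and KRT18 with 419 CPM or more in every library. The others were lower, KRT19 at 94.8 to 164 CPM, CDH1 at 61.8 CPM or less, EPCAM at 12.5 to 19.5 CPM and CLDN4 at 1.89 to 5.85 CPM. All 6 markers of A549 cells were found. AKR1B10, AKR1C1, ALDH1A1, ALDH3A1 and NQO1 had 463 CPM or more in every library, but AKR1C2, at 2.04 CPM or less, was not tested. Of 4 endothelial markers only CDH5 had a row, at 1.18 CPM or less. Of the immune markers, PTPRC and CD3E had no row, while LYZ (26.2 to 38.3 CPM), CD68 (17.1 to 24.6 CPM) and CD14 (5.09 to 17.4 CPM) were present in every library. Of 7 fibroblast markers, COL1A2, PDGFRB and POSTN had no row, COL1A1 was at 5.60 to 8.91 CPM, LUM at 0 to 3.84 CPM, and COL3A1 and DCN at 1.05 CPM or less. Rows of mitochondrially encoded genes came to 109 CPM in Senescent 1 and to between 9.39 and 23.3 CPM in the other 7 libraries. Senescent 1 and Non_senescent 2 thus stood at the ends of several measures, and the median of each class of the 59 genes is given with and without them.

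Taken over all 8 libraries, the mitotic genes tended to lie lower in Senescent libraries, but none of them passed the test. The tendency was gone when Non_senescent 2 alone was left out. Of the 59 genes, 45 had a log2 fold change (Senescent over Non_senescent) below 0 (76.3%, against 51.9% of all tested genes), and the median was -0.45, against -0.02 over all tested genes. In edgeR's quasi-likelihood test 0 of the 59 passed a Benjamini-Hochberg adjusted p of 0.05, as for all tested genes (0%), the smallest adjusted p among them being 0.309. DESeq2's Wald test called 0 of the 59 and 53 of the 11351 tested genes, and limma voom called 0 of either. At an unadjusted p under 0.05, edgeR gave 11 of the 59 lower, against 6.85% of all tested genes, and 0 higher, against 7.52%. Scaling by library totals alone gave 7 of the 59 lower and 1 higher, against 2.85% and 10.2% of all tested genes. Upper quartile scaling gave 10 lower and 2 higher, against 4.26% and 9.57%. Without Non_senescent 2 the median was 0.02, against 0.01 over all tested genes. Of the 59 genes 28 were then below 0 and 31 above, where 48.2% of all tested genes were below 0. At that p 1 gene was lower, against 3.01% of all tested genes, and 0 higher, against 6.7%. Without Senescent 1 alone the median was -0.56, with 49 genes below 0 (against 51.9% of all tested genes). In that edgeR fit 14 were lower at an unadjusted p under 0.05, against 5.49%. Without both Senescent 1 and Non_senescent 2 the median was -0.12, against 0.01 over all tested genes, with 38 genes below 0 (against 47.9%). Of the 59, 2 were then lower at an unadjusted p under 0.05 in edgeR, against 4.27% of all tested genes, and 0 higher, against 5.77%. In bulk RNA, fewer dividing cells and less RNA per dividing cell cannot be told apart.

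**Figure D1:**
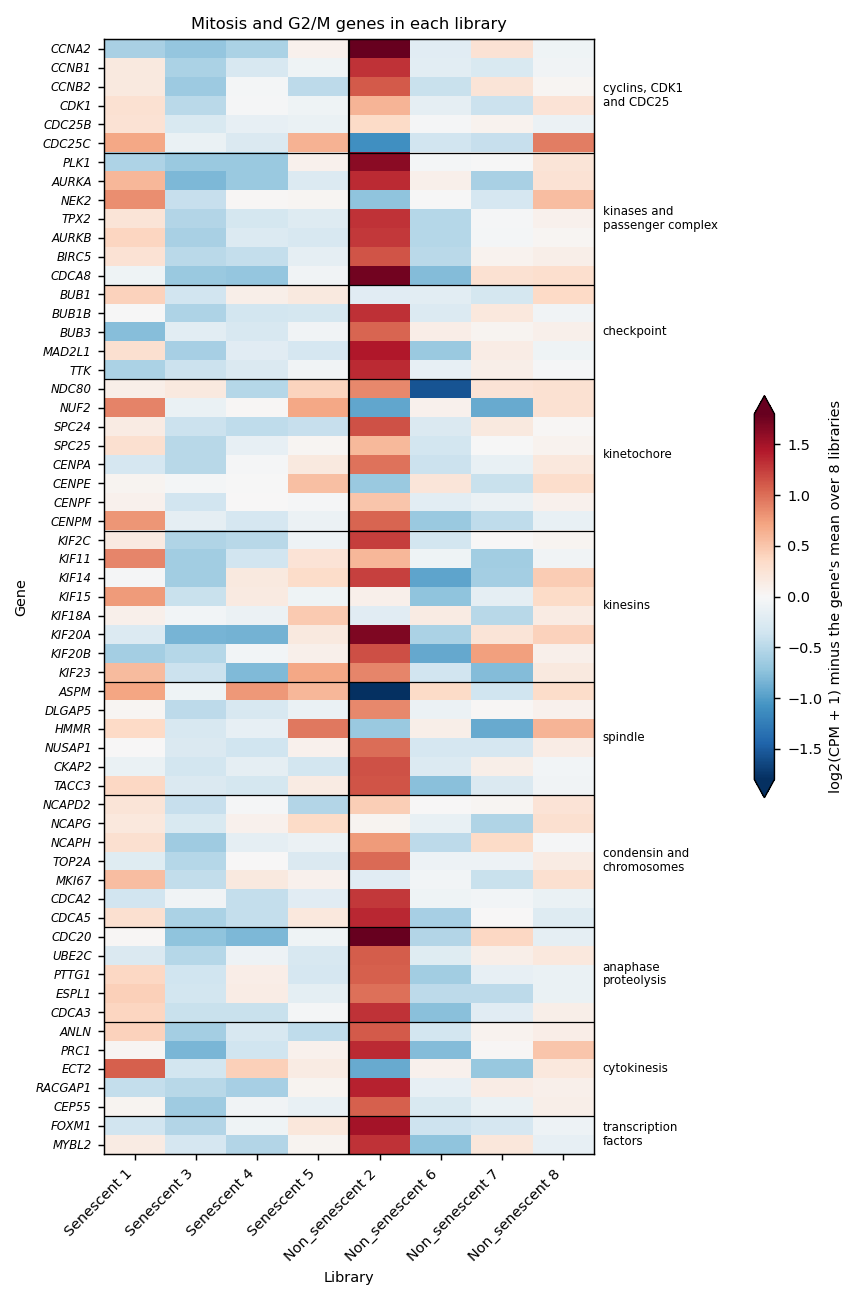
Level of each gene in each library, as log2(CPM + 1) minus the mean of the gene over the 8 libraries, with Senescent libraries left of the black line and Non_senescent libraries right of it and genes in role classes. The column of Non_senescent 2 holds the highest value of 46 of the 59 genes and is pale or blue for a few, among them ASPM, NUF2 and ECT2. The colour scale is cut at its ends.

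Non_senescent 2 held the highest value of 46 of the 59 genes (78%), against 29.4% of all tested genes. The median ratio of its value to the mean of Non_senescent 6, 7 and 8 was 2.32 over the 59 genes and 0.999 over all tested genes. Its median ratio was largest for the 2 transcription factors (3.13) and the kinases with the passenger complex (2.92), and smallest for condensin and chromosome structure (1.77). Senescent 1 stood above its own group too, with a median ratio of 1.37 to the mean of Senescent 3, 4 and 5, against 0.993 over all tested genes. Among the 7 libraries other than Non_senescent 2, Senescent 1 held the highest value of 24 genes, Non_senescent 8 of 14 and Non_senescent 7 of 12. Of all tested genes these libraries held the highest value of 27.7%, 9.14% and 17.9%, in that order. Senescent 3 held the lowest value of 24 of the 59 genes (40.7%, against 5.56% of all tested genes) and Non_senescent 6 of 14 (23.7%, against 11.8%), so that low values were found in both groups. The mean log2-CPM of the 59 genes was 4.99, 4.35, 4.58 and 4.85 in Senescent 1, 3, 4 and 5, against 5.59, 4.46, 4.66 and 4.96 in Non_senescent 2, 6, 7 and 8. The groups overlapped, and without Senescent 1 and Non_senescent 2 the group means were 4.59 ± 0.25 and 4.69 ± 0.25 (SD, n = 3 each).

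**Figure D2:**
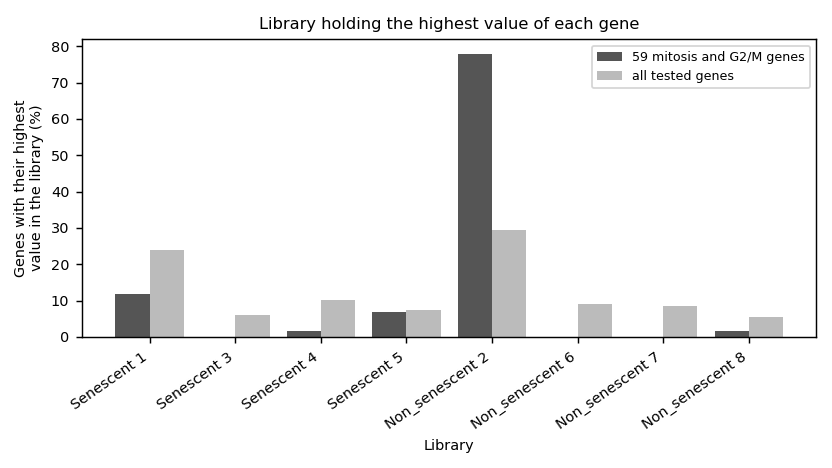
Share of genes whose highest value lay in each library, in percent, for the 59 mitosis and G2/M genes (dark) and all tested genes (light), with Senescent libraries left. Non_senescent 2 held 78% of the mitotic genes and 29.4% of all tested genes.

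CDKN1A, the gene of the CDK inhibitor p21, ran the other way in that library. It was at 338, 325, 270 and 269 CPM in Senescent 1, 3, 4 and 5, against 132, 310, 303 and 235 CPM in Non_senescent 2, 6, 7 and 8. Its lowest value lay in Non_senescent 2, and the groups overlapped. Its part in the mitotic values was not tested. By GC content of the longest annotated transcript, all tested genes with a transcript were split into quartiles. The ratio of Non_senescent 2 to the mean of Non_senescent 6, 7 and 8 was above 1 for 17 of 24 mitotic genes in the lowest quartile (30.2 to 41.9% GC), 13 of 16 in the next, and 12 of 12 and 7 of 7 in the upper ones. From the lowest to the highest quartile the median ratio was 1.72, 2.47, 2.76 and 2.84 over the mitotic genes. Over all tested genes with a transcript it was 0.967, 1.05, 1.02 and 0.968. The share of all tested genes with a ratio above 1 was not computed. The part of GC content in these values was not tested, and the amplified stretches themselves are shorter than the transcripts.

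Cyclins, CDK1 and its CDC25 phosphatases drive entry into mitosis. Of the 6 genes 5 were below 0, with a median log2 fold change of -0.36. At an unadjusted p under 0.05 in edgeR 1 of them was lower, against 6.85% of all tested genes. Without Senescent 1 and Non_senescent 2 the median was -0.12, with 6 below 0 and 0 at that p. CCNA2, the cyclin of S phase and early mitosis, had 46.55, 43.0, 46.8 and 73.9 CPM in Senescent 1, 3, 4 and 5, against 245, 60.8, 84.6 and 66.6 CPM in Non_senescent 2, 6, 7 and 8. Non_senescent 2 was far above every other library, and Senescent 5 lay inside the range of Non_senescent 6, 7 and 8. The log2 fold change of CCNA2 was -1.12 ± 0.40 (SE; edgeR adjusted p = 0.312), and -0.41 without Non_senescent 2. CCNB1, the main mitotic cyclin, had 170, 102, 123 and 143 CPM in Senescent libraries, against 374, 132, 124 and 144 CPM in Non_senescent libraries in the same order. CCNB2, a second B-type cyclin, had 156, 87.2, 135 and 99.1 CPM in Senescent libraries, against 298, 104, 162 and 141 CPM in Non_senescent libraries. Apart from Non_senescent 2, the values of both B-type cyclins were mingled between the groups, and their estimates were -0.53 and -0.57, with 95% intervals that spanned 0. CDK1, the kinase that the cyclins activate, had 117, 68.6, 95.4 and 91.9 CPM in Senescent libraries, against 149, 86.8, 73.9 and 115 CPM in Non_senescent libraries. Its log2 fold change was -0.19 (95% interval -0.70 to 0.32). CDC25B was at -0.13. CDC25C, at 0.47, rested on between 0.291 and 4.28 CPM per library.

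Mitotic kinases and the chromosomal passenger complex (7 genes) had a median of -0.58, with 6 below 0. At an unadjusted p under 0.05 in edgeR 2 were lower, against 6.85% of all tested genes. Without both libraries the median was -0.25, with 7 below 0 and 0 at that p. PLK1, a kinase needed for entry, the spindle and cytokinesis, had the smallest unadjusted p of the 59 genes (0.0108). It was at 33.9, 31.4, 31.2 and 53.0 CPM in Senescent 1, 3, 4 and 5, against 157, 49.1, 50.02 and 59.04 CPM in Non_senescent 2, 6, 7 and 8. Only Senescent 5 reached into the range of Non_senescent libraries. The log2 fold change of PLK1 was -1.08 ± 0.36 (SE; edgeR adjusted p = 0.309), -0.48 without Non_senescent 2 and -0.43 without both Senescent 1 and Non_senescent 2. CDCA8, the passenger subunit borealin, had 10.5, 6.66, 6.53 and 10.6 CPM in Senescent libraries, against 39.6, 6.09, 13.7 and 14.0 CPM in Non_senescent libraries. Non_senescent 6 lay below all 4 Senescent libraries, and the estimate of CDCA8, -1.10, was -0.39 without Non_senescent 2. AURKA, the kinase of the spindle poles, had 6.17, 1.70, 1.999 and 3.01 CPM in Senescent libraries, against 11.1, 4.06, 2.16 and 4.71 CPM in Non_senescent libraries, with a log2 fold change of -0.80 (95% interval -1.91 to 0.32). TPX2, which activates AURKA, was at -0.58, AURKB, the kinase of the passenger complex, at -0.56, and its partner BIRC5 (survivin) at -0.50. NEK2, a kinase that parts the centrosomes, was at 0.25.

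**Figure D3:**
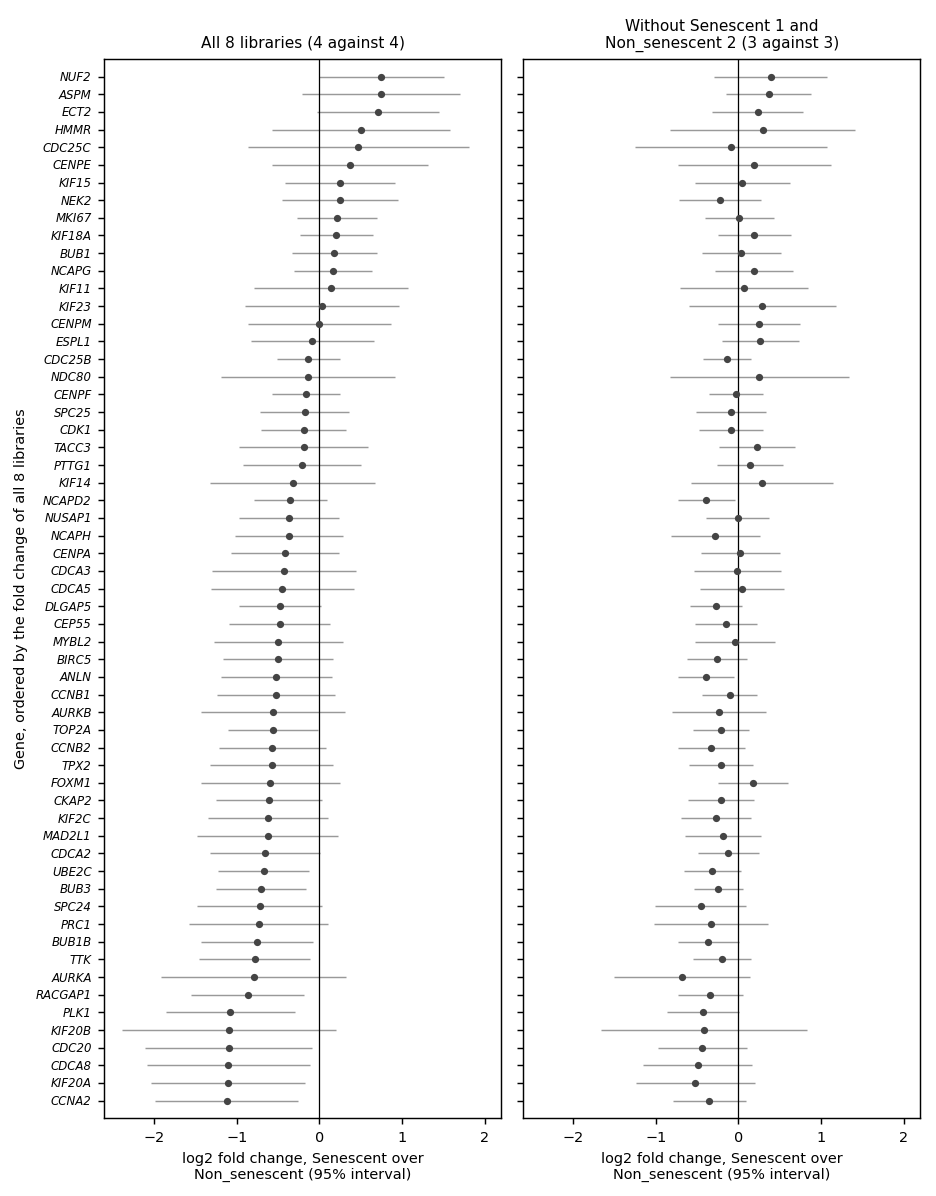
Log2 fold change of each of the 59 genes, Senescent over Non_senescent, with 95% intervals from edgeR, over all 8 libraries (left) and without Senescent 1 and Non_senescent 2 (right), in the order of the left side. The median was -0.45 on the left and -0.12 on the right.

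The spindle checkpoint (5 genes) had a median of -0.70, 3 of its genes being lower at an unadjusted p under 0.05, where 6.85% of all tested genes were. Without Senescent 1 and Non_senescent 2 the class median was -0.20, with 0 genes at that p. BUB3, which docks the checkpoint on the kinetochore, was the only one of the 59 genes whose Senescent values all lay below its Non_senescent values, where 4.14% of all tested genes did so. No gene of the 59 lay wholly above, where 5% of all tested genes did so. BUB3 had 83.6, 125, 117 and 137 CPM in Senescent 1, 3, 4 and 5, against 298, 155, 148 and 153 CPM in Non_senescent 2, 6, 7 and 8. Senescent 1 was the lowest and Non_senescent 2 the highest by far, and the other 6 libraries were parted by a narrow gap. The log2 fold change was -0.70 ± 0.25 (SE; edgeR adjusted p = 0.312), and -0.24 without those 2 libraries. The BUB3 gene lies on chromosome 10 at 123154277 to 123170467 in GRCh38 (GENCODE). TTK, the kinase known as MPS1 that starts the checkpoint signal, had 30.0, 34.1, 37.4 and 42.9 CPM in Senescent libraries, against 116, 40.3, 48.5 and 44.1 CPM in Non_senescent libraries. BUB1B (BUBR1), a part of the complex that inhibits CDC20, had 41.9, 28.4, 33.2 and 33.8 CPM in Senescent libraries, against 107, 35.5, 48.3 and 40.5 CPM in Non_senescent libraries. In both genes 1 Senescent library lay inside the Non_senescent range, and the estimates of -0.78 and -0.75 were -0.28 and -0.26 without Non_senescent 2. MAD2L1, which also binds CDC20, was at -0.63, and BUB1, a kinase of the kinetochore, at 0.18.

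The 8 kinetochore and centromere genes had a median of -0.15 over all libraries, 0.11 without Senescent 1 and Non_senescent 2, and 0 at an unadjusted p under 0.05 in either direction over all libraries. NUF2, a subunit of the NDC80 complex that binds microtubules, had 26.7, 12.8, 14.1 and 23.2 CPM in Senescent 1, 3, 4 and 5, against 6.83, 14.7, 6.95 and 17.1 CPM in Non_senescent 2, 6, 7 and 8. SPC24, a subunit of the same complex, had 8.01, 5.23, 4.93 and 5.11 CPM in Senescent libraries, against 17.0, 5.75, 8.18 and 7.27 CPM in Non_senescent libraries. Both overlapped between groups, and in Non_senescent 2 NUF2 was at its lowest and SPC24 at its highest. Their log2 fold changes were 0.75 (95% interval -0.01 to 1.504) and -0.72 (-1.48 to 0.03). CENPF, a large protein of the outer kinetochore, had 94.6, 70.6, 90.2 and 88.3 CPM in Senescent libraries, against 128, 78.7, 83.4 and 94.97 CPM in Non_senescent libraries, at -0.16 (-0.57 to 0.25). The estimates of NDC80 (-0.14), SPC25 (-0.18), CENPM (-0.0027) and the centromeric histone CENPA (-0.42) had intervals that spanned 0. CENPE, a kinesin that brings chromosomes to the spindle equator, was at 0.37 on between 0.727 and 3.01 CPM per library.

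Kinesins, the motor proteins of the spindle, had a median of -0.15, with 4 of 8 genes below 0. At an unadjusted p under 0.05 in edgeR 1 was lower, against 6.85% of all tested genes. The kinesin median was 0.06 without Senescent 1 and Non_senescent 2, with 3 genes below 0, 5 above and 0 at that p. KIF20A, which acts in cytokinesis, had 15.5, 9.93, 9.86 and 21.1 CPM in Senescent 1, 3, 4 and 5, against 61.8, 12.2, 22.1 and 25.1 CPM in Non_senescent 2, 6, 7 and 8. KIF2C, which takes microtubules apart at the centromere, had 26.9, 16.2, 16.7 and 22.4 CPM in Senescent libraries, against 58.3, 18.8, 24.1 and 24.8 CPM in Non_senescent libraries. Non_senescent 2 was the highest library for both, and Senescent 1 and 5 lay inside the Non_senescent range for both. The estimates were -1.11 ± 0.43 (SE; edgeR adjusted p = 0.319) for KIF20A and -0.62 for KIF2C, and -0.48 and -0.13 without Non_senescent 2. The other kinesins ran from -1.09 for KIF20B, with between 0.339 and 4.65 CPM per library, to 0.25 for KIF15. KIF11, which pushes the spindle poles apart, was at 0.14, KIF18A at 0.20, KIF23, a partner of RACGAP1 at the midzone, at 0.03 and KIF14 at -0.32.

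Among the 6 spindle proteins that bind microtubules the median was -0.28, and 0.11 without Senescent 1 and Non_senescent 2. This class alone among the 10 had its highest mean log2-CPM outside Non_senescent 2, at 5.13 in Senescent 5. DLGAP5 (HURP), which stabilises kinetochore fibres, had 167, 117, 134 and 150 CPM in Senescent 1, 3, 4 and 5, against 300, 152, 166 and 173 CPM in Non_senescent 2, 6, 7 and 8. CKAP2 had 19.5, 16.7, 18.9 and 16.8 CPM in Senescent libraries, against 48.6, 17.8, 23.0 and 20.7 CPM in Non_senescent libraries. For these genes Non_senescent 2 was apart from all other libraries, and the estimates were -0.48 (95% interval -0.97 to 0.02) and -0.61 (-1.25 to 0.03). HMMR, the hyaluronan receptor RHAMM that also works in spindle assembly, had 4.004, 2.22, 2.53 and 6.55 CPM in Senescent libraries, against 1.45, 3.22, 1.08 and 4.99 CPM in Non_senescent libraries. Its log2 fold change was 0.51 (-0.57 to 1.58). ASPM, a spindle pole protein, was picked out after its values were seen, because it ran against the class in Non_senescent 2. It had 65.4, 37.5, 69.0 and 60.7 CPM in Senescent libraries, against 7.27, 50.6, 30.7 and 50.2 CPM in Non_senescent libraries. The value of ASPM in Non_senescent 2 was below every other library, and its log2 fold change was 0.75 (-0.21 to 1.70). NUSAP1 and TACC3, both spindle proteins, were at -0.37 and -0.19.

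**Figure D4:**
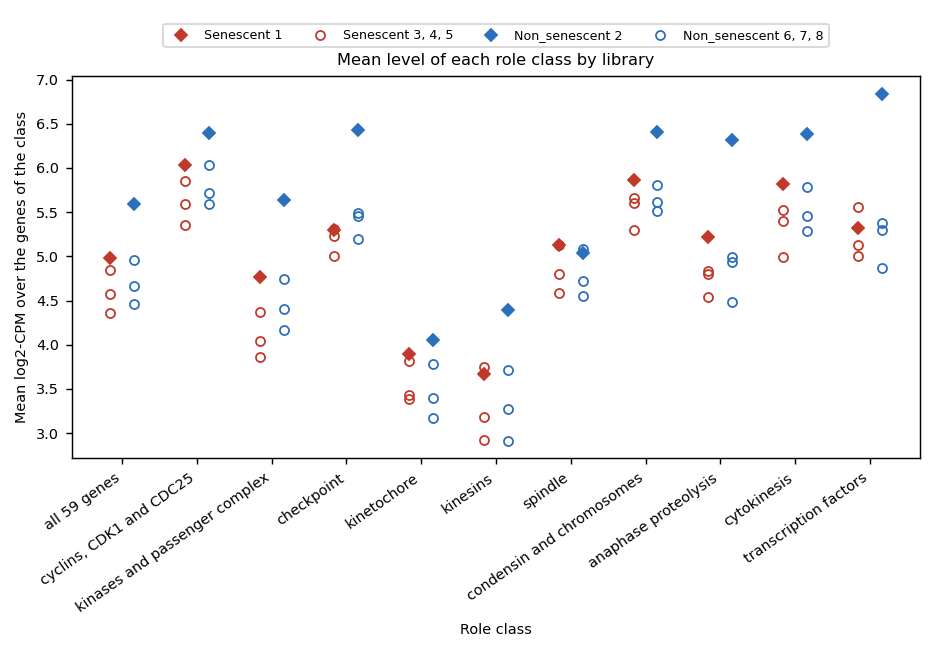
Mean log2-CPM over the genes of each role class in each library, with Senescent libraries (red) left of Non_senescent libraries (blue) and Senescent 1 and Non_senescent 2 as filled diamonds. Levels depend on which genes a class holds, so only libraries within a class can be compared. Non_senescent 2 was highest in 9 of the 10 classes.

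Condensin and chromosome structure (7 genes) had a median of -0.37, with 5 genes below 0, and of -0.12, with 4 below 0, without Senescent 1 and Non_senescent 2. TOP2A, the topoisomerase that untangles sister chromatids, had 236, 192, 276 and 230 CPM in Senescent 1, 3, 4 and 5, against 558, 258, 257 and 305 CPM in Non_senescent 2, 6, 7 and 8. The log2 fold change of TOP2A was -0.56 ± 0.25 (SE; edgeR adjusted p = 0.341), and -0.21 without Non_senescent 2. MKI67, which encodes the proliferation marker Ki-67 of the chromosome surface, had 212, 106, 162 and 152 CPM in Senescent libraries, against 125, 139, 108 and 175 CPM in Non_senescent libraries. For MKI67 Senescent 1 was the highest library and Senescent 3 the lowest, and Non_senescent 2 lay among the rest. CDCA2 (Repo-Man), which brings a phosphatase to chromosomes at mitotic exit, had 26.0, 31.9, 24.5 and 28.8 CPM in Senescent libraries, against 81.6, 31.3, 32.0 and 30.7 CPM in Non_senescent libraries. Apart from Non_senescent 2, CDCA2 lay between 24.5 and 32.0 CPM in every library. Of the condensin subunits NCAPD2 was at -0.35 and NCAPH at -0.37, whereas NCAPG was at 0.16. CDCA5 (sororin), which protects cohesion, was at -0.45. Without Senescent 1 and Non_senescent 2, NCAPD2 was at -0.39 and was 1 of the 2 genes at an unadjusted p under 0.05 (0.0288), with an adjusted p in edgeR of 0.460.

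Anaphase proteolysis was the one class of more than 2 genes with every estimate below 0, at a median of -0.43 over 5 genes. Without Senescent 1 and Non_senescent 2 the median was -0.01, with 3 of the 5 below 0. CDC20, which activates the anaphase-promoting complex, had 43.5, 25.5, 24.0 and 40.2 CPM in Senescent 1, 3, 4 and 5, against 162, 29.3, 55.7 and 38.2 CPM in Non_senescent 2, 6, 7 and 8. UBE2C, the ubiquitin-conjugating enzyme of that complex, had 64.2, 53.6, 72.1 and 62.9 CPM in Senescent libraries, against 165, 66.3, 83.1 and 88.6 CPM in Non_senescent libraries. Only Senescent 4 reached into the Non_senescent range of UBE2C, whereas 2 Senescent libraries did so for CDC20. The estimates were -1.10 ± 0.46 (SE; edgeR adjusted p = 0.324) for CDC20 and -0.67 ± 0.26 (adjusted p = 0.313) for UBE2C, and -0.29 and -0.31 without Non_senescent 2. PTTG1 (securin), which holds separase in check, was at -0.21, separase itself (ESPL1) at -0.09 and CDCA3 at -0.43.

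Among the 5 cytokinesis genes 4 were below 0, with a median of -0.52, and -0.33 without Senescent 1 and Non_senescent 2. RACGAP1, which with KIF23 forms the centralspindlin complex, had 41.9, 40.0, 37.0 and 58.6 CPM in Senescent 1, 3, 4 and 5, against 150, 51.3, 62.5 and 60.5 CPM in Non_senescent 2, 6, 7 and 8. Only Senescent 5 lay inside the Non_senescent range of RACGAP1, at -0.87 ± 0.31 (SE; edgeR adjusted p = 0.312), or -0.37 without Non_senescent 2. ANLN (anillin), a scaffold of the contractile ring, had 180, 87.8, 110 and 98.4 CPM in Senescent libraries, against 291, 107, 140 and 146 CPM in Non_senescent libraries. Senescent 1 was the second highest library for ANLN. Its log2 fold change was -0.52 over all libraries and -0.39 without Senescent 1 and Non_senescent 2, where its unadjusted p was 0.0268 and its edgeR adjusted p 0.457. ECT2, which RACGAP1 brings to the midzone to activate RhoA, had 40.0, 14.4, 25.05 and 20.6 CPM in Senescent libraries, against 9.31, 19.5, 11.1 and 21.1 CPM in Non_senescent libraries. ECT2 was lowest in Non_senescent 2 and highest in Senescent 1, at 0.71 (95% interval -0.03 to 1.45). PRC1, which bundles midzone microtubules, was at -0.73, and CEP55, which recruits the abscission machinery, at -0.48.

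Both transcription factors that switch on late cell cycle genes were highest in Non_senescent 2. Their median was -0.55, and 0.06 without Senescent 1 and Non_senescent 2. FOXM1 had 28.2, 24.8, 34.4 and 41.9 CPM in Senescent 1, 3, 4 and 5, against 104, 27.8, 29.2 and 33.9 CPM in Non_senescent 2, 6, 7 and 8. MYBL2, which encodes B-MYB, had 55.9, 40.6, 34.8 and 52.2 CPM in Senescent libraries, against 126, 30.1, 58.0 and 45.2 CPM in Non_senescent libraries. Without Non_senescent 2 both groups were mingled, and the estimates of -0.59 and -0.50 became 0.11 and 0.06.

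With each library left out in turn, and with both Senescent 1 and Non_senescent 2 left out, 27 of the 59 genes were below 0 every time, 9 were above 0 every time and 23 took both signs. The 9 above 0 were BUB1, NUF2, CENPE, KIF18A, ASPM, HMMR, NCAPG, MKI67 and ECT2. Leaving out Non_senescent 2 put 17 of the 45 genes below 0 above 0, and the size of the estimate was under 0.5 times its size over all libraries for 39 of the 59. These counts of signs and sizes were not computed over all tested genes, so no reading about the mitotic genes is drawn from them. Leaving out Non_senescent 6, which held many low values, moved the median the other way from leaving out Non_senescent 2. The median was then -0.64, and 25 genes were lower at an unadjusted p under 0.05, against 7.95% of all tested genes. Of the 59 genes, 6 had their lowest value in Non_senescent 2, namely CDC25C, NEK2, NUF2, CENPE, ASPM and ECT2. The median GC content of their longest transcripts was 38.4%, against 46.7% for the 46 genes highest there. It was 43.2% over all 59 genes and 48.8% over the genes of the table with a transcript.

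The rest of the mitotic machinery was listed by role, giving 85 of 89 genes in the table and 84 tested. At an unadjusted p under 0.05 there were 11 lower of the 84, against 6.85% of all tested genes, and 2 higher, against 7.52%, and 0 passed the adjusted threshold in edgeR. The median log2 fold change was -0.19, and -0.04 without Senescent 1 and Non_senescent 2, with 45 below 0 and 39 above. Of the 11, 4 were core subunits of the anaphase-promoting complex, CDC23, CDC26, CDC16 and ANAPC13. The 15 genes listed for that complex, its activator FZR1 among them, had a median of -0.04. CDC23 had 7.84, 16.1, 11.1 and 15.5 CPM in Senescent 1, 3, 4 and 5, against 36.6, 17.1, 22.4 and 20.8 CPM in Non_senescent 2, 6, 7 and 8. CDC26 had 34.4, 72.1, 50.1 and 58.9 CPM in Senescent libraries, against 116, 74.5, 86.0 and 72.9 CPM in Non_senescent libraries. CDC16 had 53.1, 65.7, 54.8 and 66.5 CPM in Senescent libraries, against 106, 74.5, 85.2 and 71.3 CPM in Non_senescent libraries. The groups did not overlap in these 3 subunits, the only such genes of the 84, where 4.14% of all tested genes lay wholly below. Without Senescent 1 and Non_senescent 2 their estimates were -0.48, -0.35 and -0.28, against -0.94, -0.69 and -0.49 over all libraries (edgeR adjusted p = 0.309, 0.309 and 0.312). ANAPC13 was at -0.39. CKS1B, a small CDK-binding protein, was at 116, 127, 133 and 153 CPM in Senescent libraries, against 458, 137, 164 and 161 CPM in Non_senescent libraries, and its estimate of -0.80 was -0.20 without Non_senescent 2. RBBP4, a histone-binding subunit of the DREAM complex, had 126, 206, 157 and 174 CPM in Senescent libraries, against 338, 247, 225 and 192 CPM in Non_senescent libraries, at -0.59. In cohesin 9 of 9 genes were below 0, against 51.9% of all tested genes, with a median of -0.20 and 1 gene at that p. Cohesin had, without Senescent 1 and Non_senescent 2, 7 of 9 below 0, a median of -0.06 and 0 genes at that p. Of the remaining kinetochore genes 8 of 18 were below 0, with a median of 0.06, and 0.17 without both libraries.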

How the data were processed

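RNA from A549 cells was measured in 8 libraries of 2 groups of 4, placed by their labels. The authors deposited estimated counts per gene, whole numbers not scaled to depth. Per the labels' protocols, sequencing was of targeted amplicons (Ion Torrent) from Trizol-extracted RNA, so a count reflects a short stretch of each gene and levels of different genes cannot be compared. Per the submitters' processing notes, fastp 0.20.1, Salmon 1.9 and the build GRCh38 (hg38) were used. Annotation and row filter: not given in the sources used here. No value needed rounding.

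The whole table was tested with edgeR 4.0.16 in R 4.3.3 (TMM scaling, filterByExpr at a count of at least 10 and at least 15 in all, robust quasi-likelihood test, Benjamini-Hochberg adjustment, threshold 0.05), which kept 11351 of 13841 rows. CPM values are TMM-scaled, and mean log2-CPM used a prior count of 2. Intervals are 95%. Reads lacked molecular identifiers, so counting error is a lower limit on technical error. Each of the 28 pairs of libraries differed beyond sampling noise (chi-square over its degrees of freedom at least 8.44). Scripts were tested on simulated counts.

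The genes, lists and tests were chosen with earlier results of these data known, so no p is given over the list. Values in every library are given for 12 fixed genes and the 2 genes of smallest p in each role class (28 genes), and for the 6 other mitotic genes of smallest p. Of the other mitotic genes, 3 were matched by an older symbol, and the first of 2 rows was used for KIFC1. GC content is that of the longest protein-coding transcript in GENCODE, found for 92.8% of tested genes. Alternatives were other scalings, filters and tools (DESeq2 1.42.0 and limma 3.58.1), shorter lists and libraries left out.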

Additional observations from a re-analysis of the deposited data

Results flagged for a closer look

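In each group of 4 libraries, the highest and lowest values of the 34 named genes and of the 11 mean levels were compared with the gap to their nearest neighbour (Dixon's ratio at its 95% critical value). For a group picked without regard to its values, chance flags about 1 in 20. Most of the 34 genes were named for a small p in these data, and all share the same libraries. That rate is therefore no yardstick for the count of flags. Of 90 groups 16 held a library set apart from the other 3, and in 13 of them it was Non_senescent 2. Among entry and kinase genes Non_senescent 2 stood apart for CCNA2 (245 CPM), CCNB1 (374 CPM) and PLK1 (157 CPM). Among checkpoint and kinesin genes it stood apart for BUB3 (298 CPM), TTK (116 CPM) and KIF2C (58.3 CPM). Of the spindle and chromosome genes DLGAP5 (299.5 CPM), CKAP2 (48.6 CPM), TOP2A (558 CPM) and CDCA2 (81.6 CPM) were set apart there. RACGAP1 (150 CPM), FOXM1 (104 CPM) and CKS1B (458 CPM) completed the 13. Senescent 5 stood above the other Senescent libraries for CCNA2 (73.9 CPM) and PLK1 (53.0 CPM), and Senescent 1 for SPC24 (8.01 CPM).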

How the results depend on the processing

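No paired analysis was possible because each library number was used once, so the groups share no number. Under every alternative 0 of the 59 genes passed an adjusted p of 0.05 (smallest 0.139, in DESeq2's Wald test), while of all tested genes 53 did in DESeq2, and in edgeR 1 without Non_senescent 6 and 1 without Non_senescent 8. The count of genes lower at an unadjusted p under 0.05 in edgeR was 11 over all libraries, against 6.85% of all tested genes. It was 7 when libraries were scaled by totals alone (1 higher), against 2.85% (10.2% higher). Without both Senescent 1 and Non_senescent 2 it was 2, against 4.27%. With 1 library left out it was 1 to 25. It was 1 without Non_senescent 2 (3.01% of all tested genes) and 4 without Senescent 3 (4.98%). It was 5 without Senescent 4 (3.54%) and 25 without Non_senescent 6 (7.95%). Scaling by totals moved the median of all tested genes by 0.116, to 0.0971. The count higher was 2 with upper quartile scaling (10 lower) and 2 in DESeq2's Wald test, against 9.57% and 8.02% of all tested genes. It was 1 without the filter or with at least 50 counts, against 7.16% and 7.97%, and 0 to 3 with 1 library left out. The median log2 fold change was -0.28 with scaling by totals, -0.19 in limma voom and -0.64 to 0.017 with 1 library left out. Genes lying wholly below numbered 0 with scaling by totals, 4 without both libraries and 1 to 8 with 1 left out, and wholly above 0 to 1. The shares of all tested genes under these settings were not computed. With fewer libraries, groups part more often by chance, so no reading about the genes is drawn from these counts. Of the other mitotic genes, 4 were lower at that p with scaling by totals, against 2.85% of all tested genes. The count was 6 with upper quartile scaling (4.26%), 5 in limma voom (7.83%) and 5 with at least 50 counts (5.58%). Without both libraries 2 were lower, against 4.27%, and 0 higher, against 5.77%. With 1 library left out 3 to 15 were lower, against 3.01% to 7.95%, and 0 to 5 higher, against 4.9% to 10%. With 1 library left out, the estimate ran from -0.69 to 0.023 for CCNB1, -0.33 to 0.031 for CDK1, -0.25 to 0.018 for CENPF, -0.79 to 0.11 for FOXM1 and -0.74 to 0.058 for MYBL2, each above 0 without Non_senescent 2. FOXM1 was at 0.17 without both libraries, and MKI67 at -0.021 in limma voom. The cause of these shifts was not tested. With 4 libraries a group, the median half-width of a 95% interval over all tested genes was 0.54 on the log2 scale, which limits what can be seen.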

Other observations

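Other markers of growth arrest were also uneven between libraries. LMNB1, the gene of lamin B1, which senescent cells often lose, had 14.8, 7.32, 7.59 and 10.7 CPM in Senescent 1, 3, 4 and 5, against 30.5, 7.11, 10.8 and 15.1 CPM in Non_senescent 2, 6, 7 and 8. HMGB2, a chromatin protein of dividing cells, had 121, 52.0, 74.9 and 74.8 CPM in Senescent libraries, against 86.7, 61.6, 79.8 and 97.4 CPM in Non_senescent libraries. GLB1, which encodes lysosomal β-galactosidase, had 28.9, 49.8, 43.7 and 51.5 CPM in Senescent libraries, against 44.9, 56.0, 53.7 and 50.2 CPM in Non_senescent libraries. For LMNB1 the highest library was Non_senescent 2, and for HMGB2 it was Senescent 1, which had the lowest value of GLB1. The groups overlapped in all 3 genes.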
